A study of Canis lupus familiaris with 4 samples.

Results

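The cytokines IL18, IL12, IL15 and IL10, with IL18BP, the soluble inhibitor of IL18, were examined in RNA of canine mammary tumours labelled grade 3, the most malignant in this series, and grade 1, the less malignant. Members were the non-control probes whose deposited identifier is the dog RefSeq transcript of IL10 (NM_001003077), IL12A (NM_001003293), IL12B (NM_001003292), IL15 (NM_001197188), IL18 (NM_001003169) or IL18BP (NM_001048018). This rule found 6 genes of the 1045 on the array that could be named, measured by 8 of 43603 probes: 2 each for IL15 and IL18 and 1 for each of the others. The grades were set against each other on 4 two-colour Agilent arrays: 2 carried grade 3 in the Cy5 channel with grade 1 in Cy3, and 2 the reverse. Replicates are numbered 1 and 2 within each dye orientation, and values for 4 arrays are given in the order grade 3 in Cy5 (replicates 1 and 2), then grade 1 in Cy5 (replicates 1 and 2). Sample titles name tumours, but the culture and treatment protocols attached to them describe cancer cell lines overlaid with sorted monocytes and afterwards separated by flow cytometry into stained cancer cells and unstained macrophages, so it is not settled whether tissue or sorted cells were hybridised. No treatment, genotype or age distinguishes the groups in the labels. All 4 arrays lay on 1 slide and whether any used the same RNA extract is not stated, so every p-value rests on array-to-array spread alone, and this spread may be technical.

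IL18 is made as an inactive precursor, is cut to its active form by inflammatory caspases, and together with IL12 drives T cells and natural killer (NK) cells to make interferon gamma. IL18BP binds free IL18 and blocks it, and its own gene is induced by interferon gamma. IL12 is a pair of chains, p35 from IL12A and p40 from IL12B, made mostly by macrophages and dendritic cells; IL15 maintains NK and memory CD8 T cells, and IL10 restrains antigen-presenting cells and inflammatory cytokines.

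IL18BP and IL18 were lower in grade 3 by all of their probes, IL10 and IL12A were lower by smaller amounts, and IL12B and IL15 did not pass the test. By limma's moderated test, adjusted by Benjamini-Hochberg over 35411 tested probes, 5 of 8 probes (4 of 6 genes) were called lower at an adjusted p under 0.05 and none was called higher. The background is high: 61.6% of tested probes were called, 30.5% as lower and 31.1% as higher. Among the 925 tested named genes, each by its brightest probe, 46.1% were called lower and 24.1% higher. A call on its own therefore says little, and the size of each change is the more useful measure. Of the 8 probes, the same 5 lay below 0 on all 4 arrays, which 28.3% of tested probes did. A lower call and ratios below 0 on all arrays go together, so this adds no separate support. These directions are relative to the other probes of each array. The ratios were also scaled to the spike-in control spots, whose mean log2 ratio lay between -0.78 and -0.45 on the 4 arrays. The median of all tested probes then moved from 0.0045 to 0.67, with 32259 probes called higher and 917 lower. IL10 and the dimmer IL18 probe moved above 0 without a call. IL12A (0.46, limma adjusted p = 8.3e-06), IL12B (0.73, limma adjusted p = 1.4e-12) and both IL15 probes (brighter 0.60, limma adjusted p = 4.87e-09) were called higher. IL18BP was the only member that was still called lower.

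**Figure D1:**
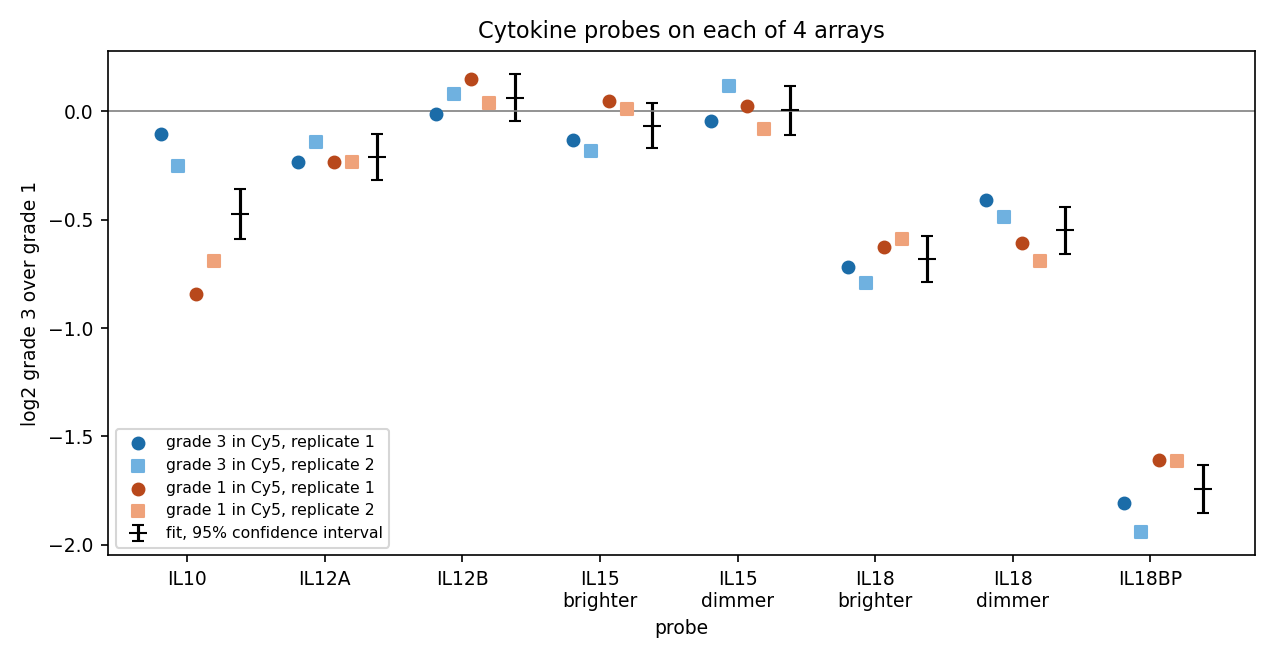
Log2 ratio of grade 3 over grade 1 (vertical axis) for the 8 cytokine probes (horizontal axis) on each of the 4 arrays, coloured by dye orientation and replicate, with the fitted value and its 95% confidence interval in black. IL18BP lies between -1.94 and -1.61 on all arrays, both IL18 probes lie below 0 on all arrays, IL10 separates by dye orientation, and IL12B and IL15 lie on both sides of 0.

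All 64 spot readings of the members (8 probes, 4 arrays, 2 channels) were well above background by the scanner software's own test, none had a feature outlier mark and none was saturated. For 5 of the 64 the local background had an outlier mark and was replaced by the median of its array and channel. Signal over local background differed widely between probes and sets how firmly each can be read. It was 115 to 153 in grade 3 and 292 to 352 in grade 1 for IL18BP, 18.1 to 27.7 and 21.9 to 27.8 for the brighter IL18 probe, and 18.3 to 27.5 and 15.5 to 18.4 for the brighter IL15 probe. For IL10 it was 8.12 to 11.3 in grade 3 and 7.75 to 13.1 in grade 1, for IL12A 3.65 to 7.63 and 3.74 to 4.89, and for IL12B only 1.75 to 2.56 and 1.39 to 1.79. The offset of 50 intensity units added before taking logs draws the ratios of dim probes toward 0, which bears most on IL12B and IL12A.

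**Figure D2:**
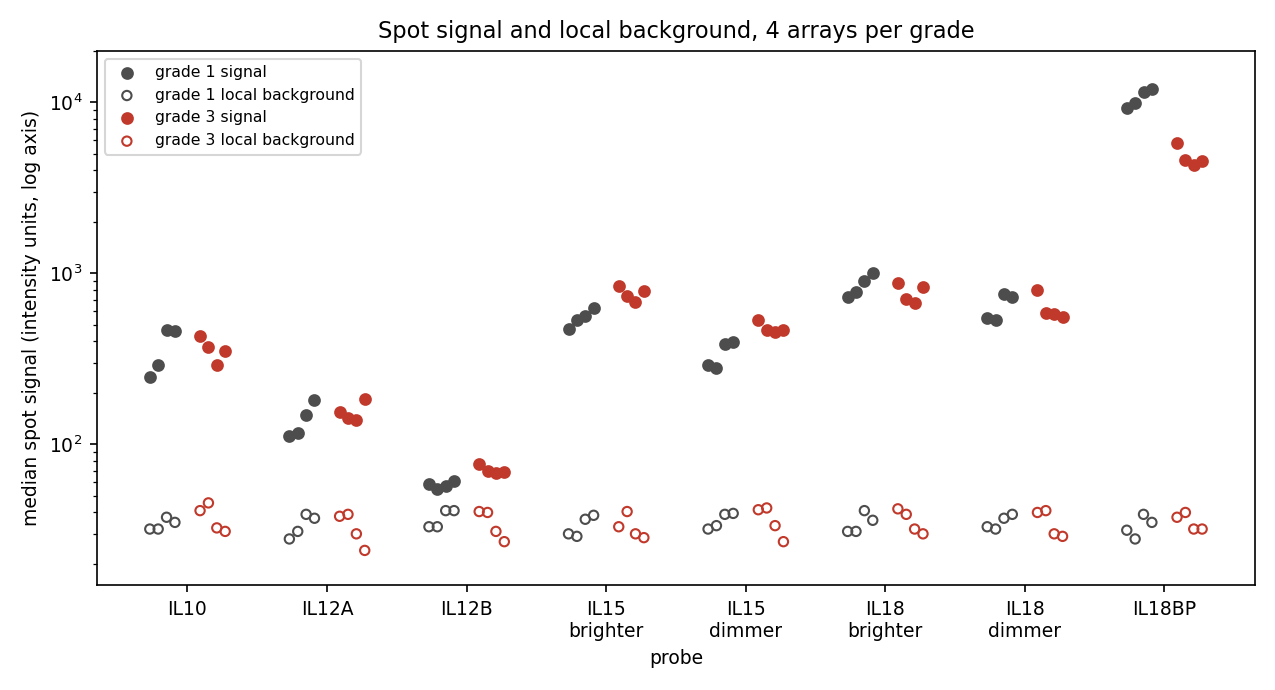
Median spot signal in intensity units on a log axis (filled points) and the local background used (open points) for each cytokine probe, with 4 readings per grade. IL18BP was read at 4282 to 11905 units, IL12B at 55 to 77 units on backgrounds of 27 to 41.

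IL18BP had the largest change of the members. Its spot signal in grade 3 was 5752, 4586, 4282 and 4544 intensity units on the 4 arrays, and in grade 1 it was 9212, 9867, 11547 and 11905. All 4 readings of grade 3 lay below all 4 of grade 1, whichever dye carried the grade. After normalization the log2 level was 11.9 ± 0.06 in grade 3 and 13.7 ± 0.13 in grade 1 (SD, n = 4), again without overlap. The log2 ratio of grade 3 over grade 1 was -1.81, -1.94, -1.61 and -1.61, a fitted log2 fold change of -1.74 ± 0.05 SE (95% confidence interval -1.85 to -1.63, limma adjusted p = 3.6e-09), or 3.35-fold lower in grade 3. Only 0.305% of tested probes had a lower log2 fold change. It kept its direction and its call under every alternative run, with values from -1.78 with the scanner software's processed signals to -1.08 with spike-in scaling.

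IL18 itself was lower by both of its probes, by less than IL18BP. The brighter probe (A_11_P0000019887) gave 874, 707.5, 673 and 830 intensity units in grade 3 and 726.5, 780.5, 898 and 999 in grade 1, so the unnormalized readings of the grades overlapped. After normalization the log2 ratio was below 0 on every array, at -0.72, -0.79, -0.63 and -0.59, which gave a log2 fold change of -0.68 ± 0.05 SE (95% confidence interval -0.79 to -0.58, limma adjusted p = 1.32e-06), or 1.60-fold lower. Normalized levels of this probe, 9.34 ± 0.08 in grade 3 and 10.0 ± 0.07 in grade 1 (SD, n = 4), did not overlap. The dimmer probe (A_11_P053551) was read at 803, 586, 575 and 555.5 units in grade 3 and 545, 531, 759 and 726.5 in grade 1. Its log2 ratios were -0.41, -0.49, -0.61 and -0.69, a log2 fold change of -0.55 ± 0.05 SE (95% confidence interval -0.66 to -0.44, limma adjusted p = 6.74e-06), or 1.46-fold lower, also without overlap of normalized levels. The difference between the 2 IL18 probes was -0.13 ± 0.21 (SD, n = 4 arrays), negative on 3 of 4 arrays. With spike-in scaling the call of IL18 was lost: the brighter probe was at -0.015 (limma adjusted p = 0.888) and the dimmer at 0.12 (limma adjusted p = 0.252), both below the median of all probes under that scaling.

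The inhibitor and its target were measured on the same arrays, so that a constant scaling of an array cancels in the difference of their log2 ratios. IL18BP minus the brighter IL18 probe was -1.09, -1.15, -0.98 and -1.02 on the log2 scale, a mean of -1.06 ± 0.075 (SD, n = 4 arrays), so IL18BP was lower by a further 2.09-fold. Against the dimmer IL18 probe the difference was -1.40, -1.45, -1.002 and -0.92, a mean of -1.19 ± 0.27 (SD, n = 4). All 4 arrays had the same sign in both cases, and an exact sign-flip test over 4 arrays gave p = 0.125, two-sided, which is the smallest value 4 arrays allow. In all, 11 such differences between members were computed, and the adjusted p over them was 0.172 for each of these. The first difference was -1.26 with local backgrounds as measured.

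IL10 was lower in grade 3, but its size differed with the dye orientation. Its signal was 430, 369.5, 292 and 350 intensity units in grade 3 and 248, 291, 467 and 458 in grade 1. In both grades the higher pair of readings came from Cy5. The log2 ratios were -0.11, -0.25, -0.84 and -0.69, with a mean of -0.18 where grade 3 was in Cy5 and -0.77 where grade 1 was. The fit, which carries a dye term for each probe, gave a log2 fold change of -0.47 ± 0.05 SE (95% confidence interval -0.59 to -0.36, limma adjusted p = 3.23e-05), or 1.39-fold lower. The dye term itself was 0.29 (limma adjusted p = 0.0086), as it was called for 19.9% of tested probes. Normalized levels were 8.30 ± 0.13 in grade 3 and 8.78 ± 0.23 in grade 1 (SD, n = 4) and did not overlap. Of the members, 4 probes had such separate levels (IL10, both of IL18 and IL18BP), against 21.3% of tested probes with all grade 3 levels below all grade 1 levels. IL10 was at -0.31 with local backgrounds as measured (limma adjusted p = 0.031) and at 0.19 with spike-in scaling (limma adjusted p = 0.059).

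The IL12 chains gave little signal. IL12A, the p35 chain, was read at 155, 142.5, 138 and 183 intensity units in grade 3 and at 112, 116, 149 and 181 in grade 1. Its log2 ratios of -0.23, -0.14, -0.23 and -0.23 were close to each other, and the log2 fold change was -0.21 ± 0.05 SE (95% confidence interval -0.32 to -0.10, limma adjusted p = 0.00335), or 1.16-fold lower. Its levels, 7.27 ± 0.14 and 7.48 ± 0.15 (SD, n = 4), overlapped between the grades, and 22.7% of tested probes had a lower log2 fold change. With local backgrounds as measured IL12A was at -0.12 and no longer called (limma adjusted p = 0.233), and with processed signals it was at -0.43 (limma adjusted p = 0.0015). With spike-in scaling it was at 0.46 and called higher (limma adjusted p = 8.3e-06). IL12B, the p40 chain that IL12 shares with IL23, was at 77, 70, 68 and 69 units in grade 3 and 59, 55, 57 and 61 in grade 1. These readings rise little above the local background, and the log2 ratios of -0.01, 0.08, 0.15 and 0.04 gave a log2 fold change of 0.06 ± 0.05 SE (95% confidence interval -0.05 to 0.17, limma adjusted p = 0.289). From the scanner software's processed signals the same probe gave -0.49, -0.35, 0.48 and -0.08, so no direction can be given for IL12B.

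IL15 was well measured and did not pass the test. The brighter probe (A_11_P0000019238) gave 841, 740.5, 680.5 and 785 intensity units in grade 3 and 471, 532.5, 564.5 and 623 in grade 1. The log2 ratios after normalization were -0.13, -0.18, 0.05 and 0.01, a log2 fold change of -0.07 ± 0.05 SE (95% confidence interval -0.17 to 0.04, limma adjusted p = 0.245). The raw readings of this probe were higher in grade 3 on every array, and so were the median signals of all probes, at 402, 334.5, 324 and 354.5 in grade 3 and 215, 222.5, 289 and 292 in grade 1. The dimmer probe (A_11_P0000021657), at 453 to 537 units in grade 3 and 281 to 398.5 in grade 1, had ratios of -0.05, 0.12, 0.02 and -0.08 and a log2 fold change of 0.0034 ± 0.05 SE (95% confidence interval -0.11 to 0.12, limma adjusted p = 0.959). Both intervals span 0 under this normalization. Under median centring the probes were at 0.11 (limma adjusted p = 0.083) and 0.13 (limma adjusted p = 0.045). Under spike-in scaling they were at 0.60 and 0.67 and both were called higher (brighter probe, limma adjusted p = 4.87e-09). Without replicate 2 with grade 3 in Cy5 the dimmer probe was at -0.038. The brighter IL18 probe lay below the brighter IL15 probe by 0.62 ± 0.04 (SD, n = 4) on the log2 scale on all 4 arrays (exact sign-flip p = 0.125, two-sided, the smallest that 4 arrays allow).

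**Figure D3:**
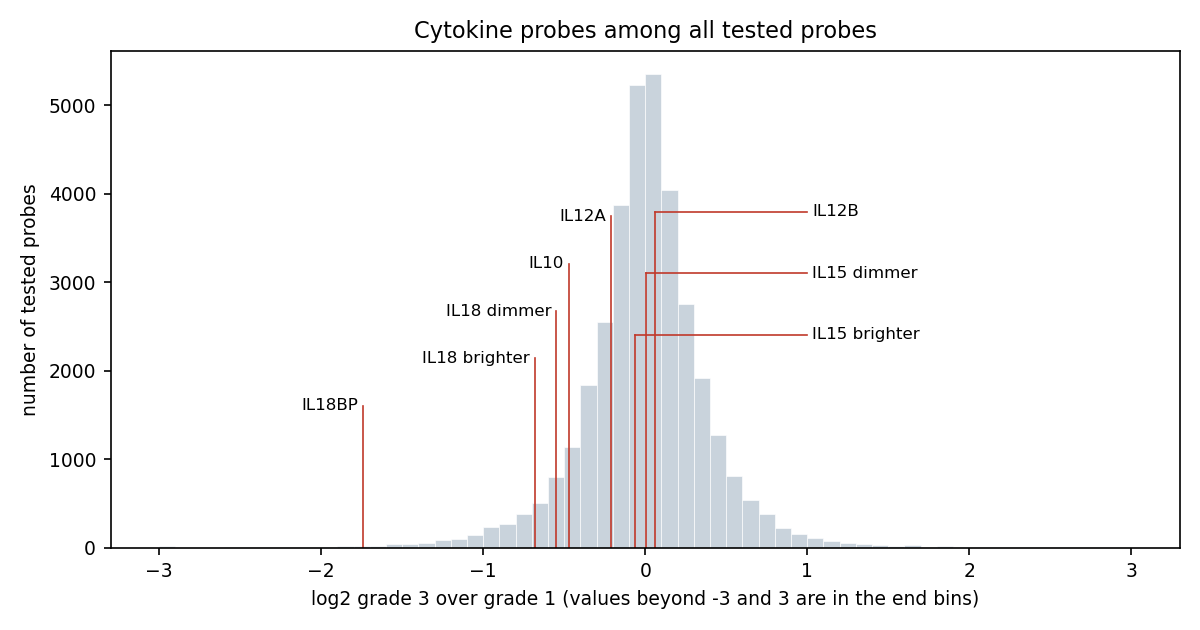
Number of tested probes (vertical axis) by log2 fold change of grade 3 over grade 1 in bins of 0.1 (horizontal axis), with the 8 cytokine probes marked. IL18BP, at -1.74, lies in the far lower tail, the IL18 probes at -0.68 and -0.55 and IL10 at -0.47 lie on the lower flank, and IL12A, IL12B and IL15 lie in the body of the distribution.

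The receptors of these cytokines were sparsely covered: of 9 listed, 2 were measured by a named probe. IL2RG, the common gamma chain through which IL15 signals, was higher in grade 3, with log2 ratios of 0.85, 0.40, 0.66 and 0.61 and a log2 fold change of 0.63 ± 0.07 SE (limma adjusted p = 3.39e-05), or 1.55-fold. Local backgrounds as measured ended that call, at 0.44 (limma adjusted p = 0.093). IL12RB2, the signalling chain of the IL12 receptor, had 2 probes that disagreed. The brighter gave 0.01, -0.10, 0.16 and 0.17, a log2 fold change of 0.06 ± 0.05 SE (limma adjusted p = 0.29). The dimmer gave -0.87, -0.68, -1.04 and -1.31, a log2 fold change of -0.97 ± 0.06 SE (limma adjusted p = 5.64e-07), and the mean of the 2 was -0.46. IL12RB2 therefore has no settled direction here.

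Over the lists of receptors, IL18 processing, signalling, interferon gamma, cytotoxic and related cytokine genes, 25 of 88 genes had a named probe and 24 were measured: 18 were called lower, 1 higher and 5 not called, with a median log2 fold change of -0.35. Among all 925 named genes tested by the same rule, 46.1% were called lower, 24.1% higher, and the median was -0.09. With local backgrounds as measured 7 of the 24 were called lower and none higher, with a median of -0.22. With processed signals 20 were lower and 1 higher, with a median of -0.66, and with median centring 20 were lower and 2 higher, with a median of -0.36. With spike-in scaling 14 were higher and 6 lower, with a median of 0.32 against the shift of 0.67 for all probes. Where both grades had to be above background on all arrays, 19 were measured: 15 lower and 1 higher, with a median of -0.46.

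CASP4, an inflammatory caspase and the only measured gene of the 5 listed for IL18 processing, was lower on all arrays (-1.06, -1.22, -0.90 and -0.93). Its log2 fold change was -1.03 ± 0.05 SE (limma adjusted p = 1.26e-07), or 2.04-fold lower. Of 18 signalling genes 2 were measured and both were called lower, as were 46.1% of all 925 tested named genes. SOCS3, an inhibitor of cytokine receptor signalling that IL10 and IL6 induce, was at -0.46 ± 0.06 SE (limma adjusted p = 5.87e-05). NFKB1, a subunit of the transcription factor that IL18 activates, was at -0.27 ± 0.05 SE (limma adjusted p = 0.00107). SOCS3 was not called with local backgrounds as measured (-0.28, limma adjusted p = 0.132), NFKB1 was not called with median centring (-0.03, limma adjusted p = 0.69), and both lay above 0 with spike-in scaling (0.20 and 0.40).

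Of 17 genes listed for interferon gamma and the genes it induces, 4 were measured and all 4 were called lower in grade 3. Among all 925 tested named genes 46.1% were called lower. PSMB9 and PSMB8 are the immunoproteasome subunits that interferon gamma exchanges into the proteasome. PSMB9 had log2 ratios of -0.96, -0.94, -0.85 and -1.004 and a log2 fold change of -0.94 ± 0.05 SE (limma adjusted p = 2.22e-07), or 1.92-fold lower. PSMB8 was at -0.51 ± 0.06 SE (limma adjusted p = 2.97e-05), and CXCL10, a chemokine for T and NK cells, at -0.63 ± 0.05 SE (limma adjusted p = 3.19e-06). IFNG, the cytokine itself, was at -0.33 ± 0.05 SE (limma adjusted p = 0.000351), but it was above background in grade 3 on only 1 of 4 arrays. It entered the test only through grade 1, so its call does not measure a grade 3 level. IFNG was not called with local backgrounds as measured (-0.17, limma adjusted p = 0.193). From processed signals IFNG was at -2.001 (limma adjusted p = 0.000229), or 4.00-fold, against 1.26-fold here, so the size of its change is not settled. With spike-in scaling PSMB8, CXCL10 and IFNG lay above 0, at 0.16, 0.04 and 0.34.

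Of 12 cytotoxic effectors and lineage regulators, 3 were measured. TNFSF10, the death ligand TRAIL, was lower on all arrays (-1.35, -1.27, -1.13 and -1.02), with a log2 fold change of -1.19 ± 0.05 SE (limma adjusted p = 4.28e-08), or 2.28-fold. PRF1, perforin, the pore-forming protein of killer cells, was at -0.14 ± 0.05 SE (limma adjusted p = 0.028). The PRF1 call was lost without replicate 2 with grade 3 in Cy5 (limma adjusted p = 0.064), without replicate 1 with grade 1 in Cy5 (limma adjusted p = 0.194) and without replicate 2 with grade 1 in Cy5 (limma adjusted p = 0.067), as well as with local backgrounds as measured (limma adjusted p = 0.488), and PRF1 was at 0.53 with spike-in scaling. FOXP3, the regulator of regulatory T cells, was at -0.09 ± 0.06 SE (limma adjusted p = 0.204). It was above background in grade 3 on 1 array and entered the test only through grade 1. FOXP3 was called lower with the scanner software's processed signals (-0.82, limma adjusted p = 0.026) and with median centring (-0.31, limma adjusted p = 0.0012), and lay at 0.57 with spike-in scaling.

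Of 27 related cytokines, 12 were measured, of which 9 were called lower, 3 were not called and none was higher. Among all 925 tested named genes 46.1% were called lower. With local backgrounds as measured only 1 of the 12 was called lower, and with spike-in scaling 7 were higher and 3 lower. IL1B, which like IL18 is released through inflammatory caspases, stood above background in grade 1 alone. It is counted among the 9, but it entered the test only through grade 1. Its change is therefore given only as a bound, at least 4.32-fold lower in grade 3. IL6, an acute-phase cytokine, had log2 ratios of -1.62, -1.72, -1.55 and -1.67 and a log2 fold change of -1.64 ± 0.05 SE (limma adjusted p = 6.18e-09), or 3.11-fold lower, with its dimmer probe at -0.96. IL33, a member of the IL1 and IL18 family, was at -0.92 ± 0.08 SE (limma adjusted p = 4.64e-06), with its dimmer probe at -1.61. With local backgrounds as measured neither IL1B (limma adjusted p = 0.094) nor IL6 (-0.95, limma adjusted p = 0.075) was called. The other 6 called genes (IL1A, IL4, CSF2, IL1RN, IL17A and IL5) were at log2 fold changes of -0.80 to -0.17, and spike-in scaling moved all of these but IL1A above 0. CSF2 was above background on 3 arrays in grade 3 and 4 in grade 1, so it too entered the test only through grade 1. Processed signals gave larger changes for several dim probes: -1.28 for CSF2 against -0.36, -1.11 for IL4 against -0.48, and -2.32 for IL6. The IL17A call was lost without replicate 1 with grade 3 in Cy5 (-0.10, limma adjusted p = 0.133) and without replicate 1 with grade 1 in Cy5 (-0.16, limma adjusted p = 0.117), and the IL5 call without replicate 1 or 2 with grade 1 in Cy5 (limma adjusted p = 0.053 and 0.064). By their brightest probes IL7 was at -0.09, IL2 at -0.03 and IL13 at 0.05, none of them called. The dimmer IL7 probe was called lower (-0.17, limma adjusted p = 0.011), above background on 3 arrays in grade 3 and 4 in grade 1. The dimmer IL2 probe (-0.30) was above background on 0 arrays in grade 3 and on 4 in grade 1. It entered the test only through grade 1, so its call does not measure a grade 3 level. The brighter IL2 probe was called lower with processed signals (-0.24, limma adjusted p = 0.046) and median centring (-0.16, limma adjusted p = 0.032). The sign of IL13 turned without replicate 2 with grade 1 in Cy5 (-0.036), and that of IL2 without replicate 1 with grade 3 in Cy5 (0.0085).

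**Figure D4:**
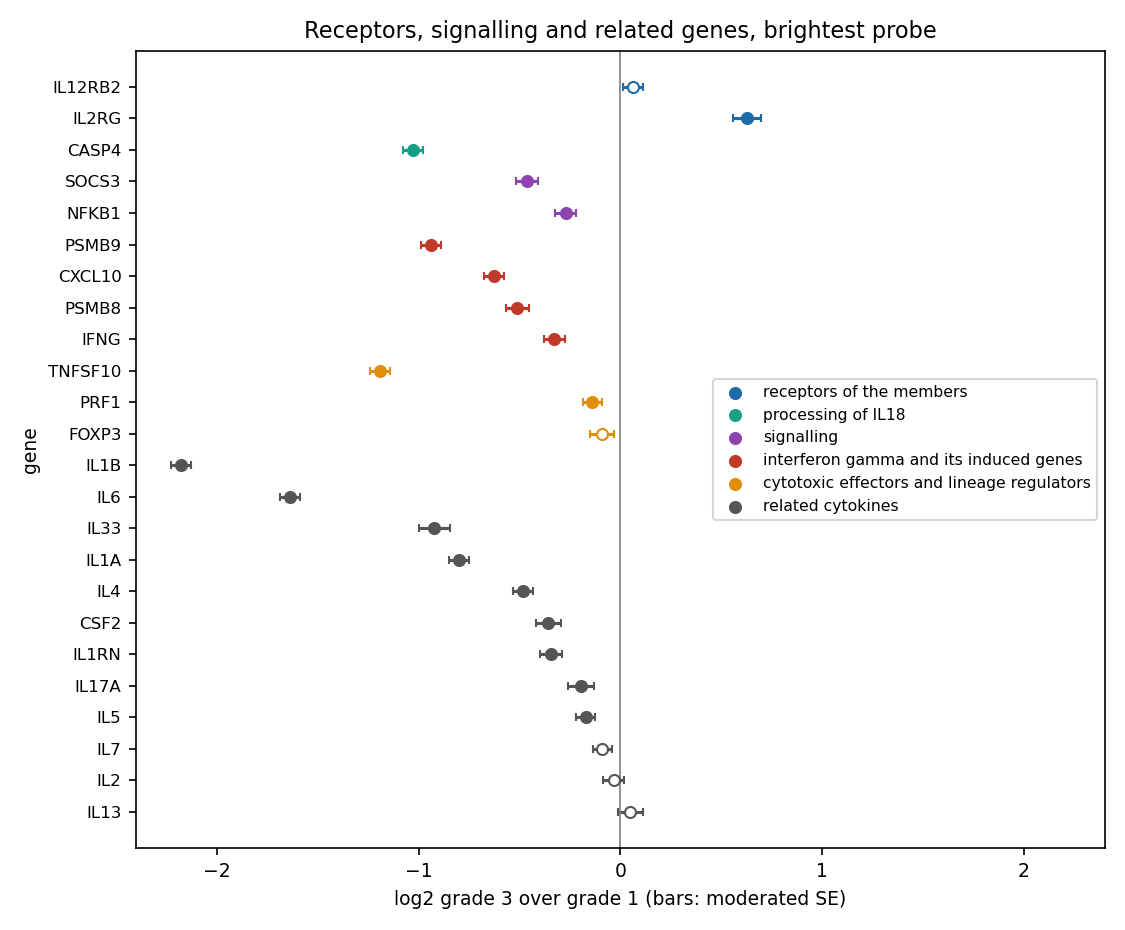
Log2 fold change of grade 3 over grade 1 (horizontal axis) with its moderated SE for the 24 measured genes of the pathway lists (vertical axis), by their brightest probe and coloured by list. Filled points were called at an adjusted p under 0.05 and white points were not; 18 called genes lie to the left of 0 and IL2RG alone to the right. IL1B is drawn at its fitted value although it was not above background in grade 3. IFNG and FOXP3 were above background in grade 3 on 1 array each.

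Measured markers of the cells that make or answer these cytokines were called lower by their brightest probes, except CD80. The share called lower among all 925 tested named genes was 46.1%, and few genes were measured per cell type. In RNA of many cells, fewer cells of a type and less RNA per cell cannot be told apart. Monocyte and macrophage markers were measured for 4 of 11 genes, of which 3 (FCGR1A, CD163 and CD86) were called lower and CD80 was not called by its brightest probe (-0.03), although its dimmer probe was called lower (-0.61, limma adjusted p = 7.05e-06). Their summed intensity was 13020 to 14273 in grade 3 and 26916 to 29015 in grade 1. T cell markers were measured for 3 of 9 (CD4, CD8A and CD28), all called lower, with sums of 530 to 566 and 656 to 705. For NK cells 1 of 5 was measured, KLRD1, which was called lower, at 114 to 151 in grade 3 and 295 to 379 in grade 1. Both measured markers of dendritic cells (sums of 808 to 1149 and 1558 to 1816), of B cells (1577 to 1828 and 2357 to 2705) and of neutrophils (14125 to 16234 and 43374 to 46670) were called lower too. These sums follow the brighter gene of each pair. In grade 1 the log2 level was 15.4 for S100A8 and 7.19 for CXCR2, with log2 fold changes of -1.56 and -0.29. For CD38 and MS4A1 the levels were 11.1 and 8.44, with log2 fold changes of -0.48 and -1.55. With spike-in scaling 2 of the 3 T cell markers were higher and none lower, while 3 of the 4 monocyte and macrophage markers and KLRD1 were still lower; of the pairs of markers, 0 were lower for dendritic cells, 1 for B cells and 1 for neutrophils, whose other marker was higher. With local backgrounds as measured none of the T cell markers nor KLRD1 was called, and 1 of 2 was called lower for each of dendritic cells, B cells and neutrophils. No listed marker with a named probe was below background in both grades. The other listed markers had no named probe and were not assessed, among them all 3 pan-leukocyte markers. The part of these cells in the cytokine changes was not tested.

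Of the measured epithelial markers, MUC1 was called higher and CLDN3 (0.11) was not called, both above background on all arrays. Muscle markers were called higher for 4 of 5 genes by the brightest probe, with DES lower, and their summed intensity was 11828 to 12561 in grade 3 and 1708 to 2151 in grade 1. The other 3 probes of TCAP, one of these 4, lay at -0.22 to -0.12, so its direction is not settled. Fibroblast markers were called lower for 3 of 4 measured genes and endothelial markers for 2 of 2. Among all 925 tested named genes 24.1% were called higher and 46.1% lower. With spike-in scaling all 5 muscle markers were higher, fibroblast markers were 2 higher and 1 lower, and endothelial markers 1 higher and 0 lower. Log2 ratios of the 4 arrays over all tested probes correlated at 0.69 to 0.94 (across probes, which are not independent). Median signals were 289 to 402 units in Cy5 on backgrounds of 39 to 41 and 215 to 354.5 units in Cy3 on 28 to 32, between 80.6% and 84.5% of probes per channel were well above background, and the number of arrays limits the precision.

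Genes with the ratios most like a member were found among 918 named genes by the root mean square difference of the 4 log2 ratios, with no test. Nearest to IL18BP were CCL7, a chemokine for monocytes (0.11), and ALPL, tissue-nonspecific alkaline phosphatase (0.12); CCL7 was at -1.14 and not called with local backgrounds as measured (limma adjusted p = 0.062). Nearest to IL18 were DLA-DQA1, a dog MHC class II chain (0.048), and VPS52, a subunit of an endosome-to-Golgi tethering complex (0.059), although the mean over the probes of VPS52 was at 0.046 rather than near IL18. IL10 was nearest to PTGER4, a prostaglandin E2 receptor (0.11), and LOC403631 (0.13). The nearest to IL12B were OR7A74 and TRPM8, and to IL15 KLK10 and ARSB, at distances of 0.017 to 0.035 among ratios that are all close to 0.

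**Figure D5:**
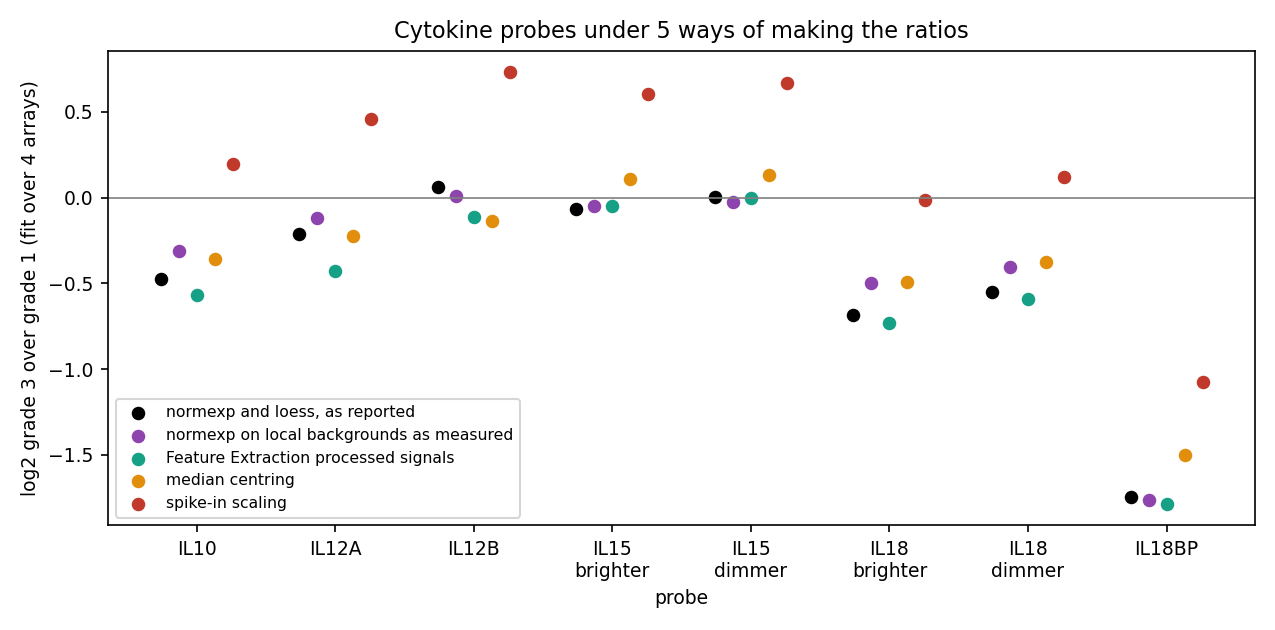
Fitted log2 fold change of grade 3 over grade 1 (vertical axis) for each cytokine probe (horizontal axis) under 5 ways of making the ratios. IL18BP stays between -1.78 and -1.08, the spike-in scaling (red) lifts every probe by about the same amount and brings the brighter IL18 probe to -0.015, and IL12B and IL15 change sign between settings.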

How the data were processed

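RNA labelled grade 3 and grade 1 was compared on 4 two-colour arrays. The submitters' processing notes name Agilent Feature Extraction 10.7.3.1 for reading the spots. Per the file headers, median signals, local backgrounds and processed signals are linear intensity values. Log10 ratios fill the deposited LogRatio column and the value table of the series, the table turned to grade 3 over grade 1 (largest difference from the turned column 4.99e-06, median 0 per array). The direction of ratios came from the dyes in the labels.

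In R 4.3.3 with limma 3.58.1, local backgrounds with an outlier mark (151 to 2352 per array and channel) were set to the median of their array and channel, background was corrected with normexp (offset 50), and arrays were normalized with loess, control spots at weight 0. Spots with feature outlier marks (11 to 39 per array) were left out. To be tested (35411 probes), a probe had to be well above background on every array in grade 3 or in grade 1. Grade and a probe-specific dye effect were fitted, with eBayes moderation (degrees of freedom 2 residual, 7.5 prior). Tests were two-sided, at a threshold of 0.05 after Benjamini-Hochberg adjustment over all of them. Levels are log2 intensities after Aquantile. The script was tested on simulated data. Where a probe was not above background in 1 grade, its fold is a bound, taken against that probe's signal or the array's detection floor (the dimmest probe above background), whichever was larger.

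Probes were named through RefSeq accessions in a table of UU_Cfam_GSD_1.0, which gave 1648 probes a symbol; its coordinates were not used, since it differs from the array's build. The brightest tested probe stood for a gene outside the members. All members, all measured genes of 6 pathway lists and, for likeness, the 2 nearest genes per member were named, of which those of IL12A are not reported here; values were due for the 3 largest changes in the related cytokines, and those given for others of that list were chosen after they were seen. The members, the lists, the tests and the replacement of backgrounds were chosen with earlier results of these data known. Alternatives were other background corrections, scalings, filters, no dye term, replicate blocks, the mean of a gene's probes and leaving out each array. Whether spike-in RNA was added in equal amounts to both grades is not given in the sources used here. Slide could not be a block, as all arrays share it. Probe, promoter and protein sequences were not used here.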

Additional observations from a re-analysis of the deposited data

Results flagged for a closer look

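Among 32 member probes and pathway genes searched, 1 had an array far from the other 3, where chance gives about 1 in 20. IL12A had log2 ratios of -0.23, -0.23 and -0.23 on 3 arrays and -0.14 on replicate 2 with grade 3 in Cy5, and the gap made up 0.979 of its range. Of the others, 4 differed between the dye orientations by the dye term of limma's fit, which was called for 19.9% of all tested probes. The difference is the log2 ratio where grade 3 was in Cy5 minus that where grade 1 was. This difference was 0.59 for IL10 (-0.18 against -0.77, adjusted p = 0.0086), 0.61 for IL33 (-0.62 against -1.23, adjusted p = 0.025), 0.33 for IL1B (-2.01 against -2.34, adjusted p = 0.048) and -0.38 for PSMB8 (-0.70 against -0.32, adjusted p = 0.039). The arrays of opposite orientation lay on opposite sides of 0 for the brighter IL15 probe (-0.16 against 0.03, difference -0.19, limma adjusted p of the dye term 0.186) and for IL7 (0.03 against -0.21, difference 0.23, adjusted p = 0.116).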

How the results depend on the processing

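IL18BP kept its direction and call under all alternatives run, and IL10 and both IL18 probes under all but spike-in scaling. With local backgrounds as measured, 2327 probes were higher and 4418 lower (main counts 11028 and 10801; 34.5% of calls higher against 50.5%), pathway genes numbered 0 higher and 7 lower, IL12A was at -0.12, the dimmer IL15 probe at -0.025 and IL18BP minus the brighter IL18 probe, a comparison whose alternatives were chosen after seeing the data, at -1.26; the cause was not tested. From processed signals, and alike from the series' value table, IL12B was at -0.11, the dimmer IL15 probe at -0.0048 and TRPM8 at -0.045. With median centring 63.9% of calls were higher, 2 pathway genes were higher, and IL12B was at -0.13, the brighter IL15 probe at 0.11, IL13 at -0.17, IL7 at 0.015, ARSB at 0.10 and TRPM8 at -0.053. Spike-in scaling moves every ratio of an array by the same amount, and 97.2% of calls were then higher: 32259 probes higher and 917 lower, pathway genes 14 and 6, IL10 at 0.19, IL12A at 0.46, IL12B at 0.73, the brighter IL15 probe at 0.60 and the IL18 probes at -0.015 and 0.12. It also turned ARSB (0.60), CSF2 (0.31), CXCL10 (0.041), FOXP3 (0.57), IFNG (0.34), IL17A (0.47), IL1RN (0.32), IL2 (0.63), IL4 (0.19), IL5 (0.50), IL7 (0.58), KLK10 (0.60), LOC403631 (0.10), NFKB1 (0.40), PRF1 (0.53), PSMB8 (0.16), PTGER4 (0.15) and SOCS3 (0.20). By the mean of a gene's probes IL12RB2 was at -0.46 and VPS52 at 0.046. Leaving out 1 array ended no member's call; sign changes fell in IL13 (-0.036 to 0.13), the dimmer IL15 probe (-0.038 to 0.044) and IL2 (-0.077 to 0.0085). The labels do not say what a shared replicate number means, and deviations of same-numbered arrays correlated at -0.09. The replicate block as a fixed term gave 10914 probes higher and 10633 lower, averaging same-numbered arrays gave 11611 and 11267, and neither changed a member's call. IL12B was read at 1.39 to 2.56 times its local background, and IFNG and FOXP3 were above background in grade 3 on 1 array each, which limits how firmly they can be read.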
